A study of Mus musculus with 8 samples.

Results

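Solute carrier genes of the families Slc1, Slc2, Slc3, Slc7, Slc16 and Slc38, which encode membrane transporters of sugars, amino acids and monocarboxylates, were described in the embryonic mouse genital tubercle of both sexes. The members were all probe sets annotated to 1 single gene whose symbol belongs to these families, which gave 120 probe sets of 57 genes among 45101 probe sets in all. The tubercle, the outgrowth from which penis and clitoris develop, was microdissected from FVB/N embryos at 14 days post coitum (Theiler stage 22). Samples of 4 males and 4 females, none of them pooled and with no treatment or allele given in the labels, were amplified in 2 rounds and hybridized to Affymetrix MOE430 arrays, 1 array for each sample. The labels do not say whether samples shared a litter or an amplification batch, so the p-values reflect only how far these 8 samples spread, and part of that spread may be technical.

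Slc2 proteins let glucose and related sugars cross the membrane down their gradient, and part of the Slc16 family carries lactate, pyruvate and ketone bodies together with protons. Amino acids enter through sodium-coupled carriers of the Slc1 and Slc38 families and through Slc7 carriers, several of which, the light chains, reach the cell surface only when bound to a heavy chain encoded by Slc3a1 or Slc3a2. Some growing embryonic tissues are known for high glycolysis and for a high demand for glutamine and essential amino acids, which were not measured here. A lysosomal member, Slc38a9, reports arginine to the growth regulator mTORC1.

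The tubercle markers Hoxd13, Isl1 and Shh were bright on every array, while Hoxa13 and Hoxd12 lay below the intensity filter. The Y-linked gene Eif2s3y followed the labels on all 8 arrays (at most 70.8 in females, at least 4109 in males), but male replicate 3 also read 16036 for Xist, against 230 to 620 on the other male arrays. Pairs of arrays correlated at 0.966 to 0.985 inside a sex and at 0.904 to 0.952 across the sexes. The 18S ribosomal RNA control read 13215 ± 4445 on female arrays and 26742 ± 5680 on male arrays (SD, n = 4 each; two-sided exact permutation p = 0.0286, and 4 arrays against 4 cannot give less). The median intensity also lay higher on male arrays, with 184 to 207 in females and 212 to 249 in males. In the deposited values every array had the same trimmed mean.

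Of the 57 transporter genes, 33 had at least 1 probe set above the intensity filter, and on the brightest such probe set 10 genes were lower in males, 4 were higher in males and 19 did not pass. The 10 were Slc1a5, Slc16a13, Slc3a2, Slc7a5, Slc2a8, Slc38a6, Slc2a3, Slc7a6, Slc38a1 and Slc38a2, and the 4 were Slc38a9, Slc16a9, Slc16a4 and Slc1a4. Each difference is the male mean minus the female mean of log2(intensity + 16), tested with limma and called at an adjusted p under 0.05 over all 22519 tested probe sets (the constant makes differences of dim genes look smaller). The share of transporter genes called was 42.4%, beside 42.2% of all 11489 genes tested, so the families as a whole were called about as often as the array. By direction, 28.2% of all genes had females higher and 14% had males higher. The median difference of the 33 genes was -0.11, beside -0.12 over all genes. Counted as probe sets, 21 of 60 tested members were called, 7 with males higher and 14 with females higher, which is 35%, beside 40.5% of all probe sets (18.7% with males higher and 21.9% with females higher). Male and female ranges were apart for 21 of the 60, again 35%, beside 37.1% of all tested probe sets. Of the 14 called genes, 11 kept their call without each array in turn, and 12 had ranges that did not overlap. How often this held among all called genes of the array was not counted, so these counts do not set the transporters apart. With the 18S level as a covariate all 14 kept their sign but none its call, in a fit in which standard errors of these genes were 1.64 to 1.90 times as large. Their differences stayed within 0.8 to 1.2 times the original for 6 genes, among them Slc38a9 (0.99 ± 0.41), Slc16a4 (0.77 ± 0.32), Slc3a2 (-0.63 ± 0.25) and Slc7a6 (-0.44 ± 0.19). They were larger for Slc2a8 (-1.08) and Slc16a13 (-1.01) and smaller for 6. The 6 were Slc16a9 (0.57), Slc2a3 (-0.33), Slc38a6 (-0.31), Slc38a1 (-0.23), Slc38a2 (-0.12) and Slc7a5 (-0.10). That fit called 414 probe sets of the whole array. In it 11 of the 60 members had an unadjusted limma p under 0.05, beside 4770 of all 22519 tested probe sets.

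**Figure D1:**
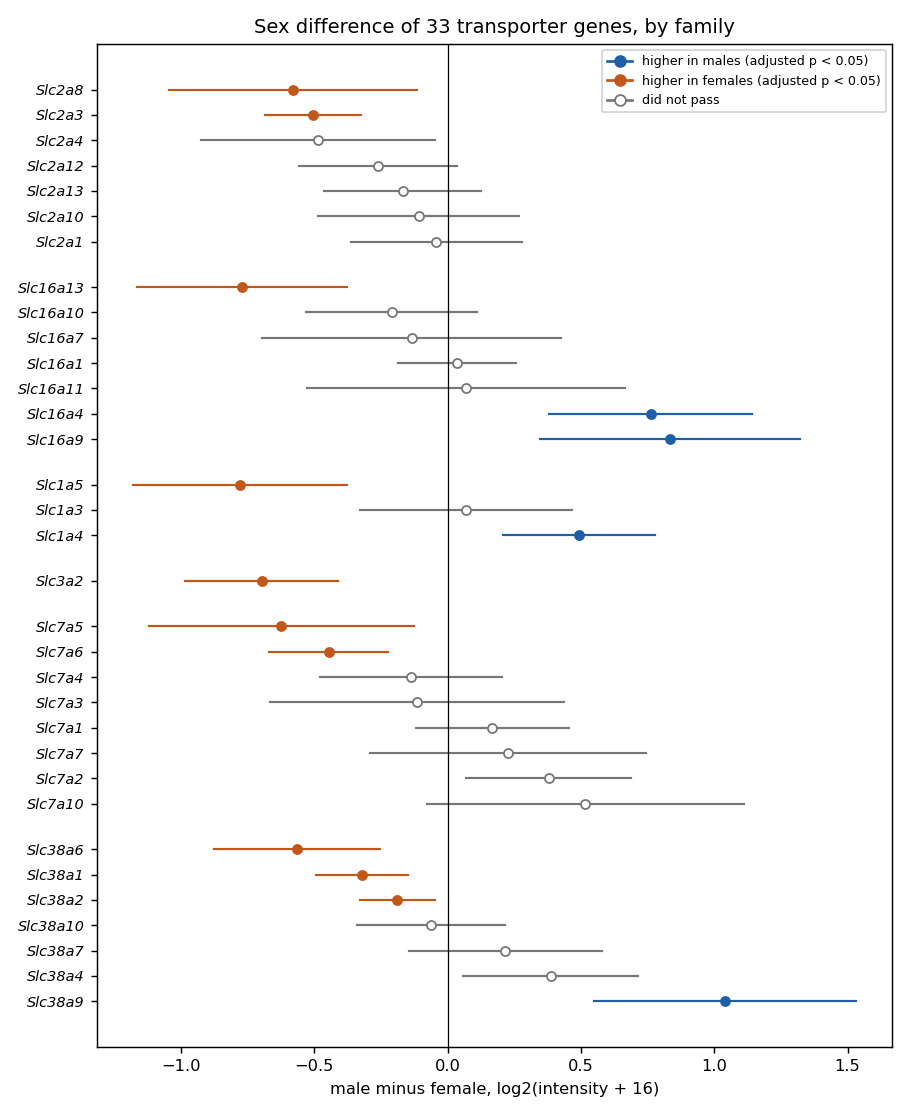
Male minus female difference on the log2(intensity + 16) scale with its 95% confidence interval for the 33 tested transporter genes, grouped by family, each on its brightest tested probe set (n = 4 arrays per sex). Filled points passed at an adjusted p under 0.05: 4 genes lie to the right of 0, from Slc1a4 at 0.49 to Slc38a9 at 1.04, and 10 lie to the left, from Slc38a2 at -0.19 to Slc1a5 at -0.78.

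Among the glucose transporters, Slc2a3, a high-affinity carrier, was lower in males, and Slc2a1, the basal carrier of most embryonic cells, did not pass. Slc2a3 read 15807, 13765, 15784 and 13404 on the 4 female arrays and 9625, 10933, 10475 and 10331 on the 4 male arrays. Every male array thus lay below every female array, with a difference of -0.50 ± 0.08 (SE, limma adjusted p = 0.000721), which is 1.42-fold higher in females. Another probe set of Slc2a3 differed by -0.31 ± 0.09, and its call ended without female replicate 3 (limma adjusted p = 0.0639). The suffixes of this probe set (_x) and of the brightest (_s) mark probes that may cross-hybridize. The dimmest tested probe set of the gene differed by 0.84 ± 0.38 and did not pass. When the 3 probe sets were averaged the gene's difference was 0.01 and the call was lost, so the direction of Slc2a3 rests on its bright probe sets.

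For Slc2a1 the arrays read 6158, 5726, 6806 and 9803 in females and 7350, 6428, 7042 and 6295 in males. The ranges overlapped and the difference was -0.04 (95% confidence interval -0.36 to 0.28). The highest value came from female replicate 4, and without that array the difference was 0.12. The 2 other tested Slc2a1 probe sets differed by -0.34 and -0.13 and did not pass either. Slc2a8, an intracellular hexose carrier, read 445, 740, 416 and 516 in females and 417, 344, 304 and 307 in males. Its ranges touched, and the difference of -0.58 ± 0.21 passed narrowly (limma adjusted p = 0.0467). That call ended without any 1 of 6 arrays, female replicates 1, 2 and 4 and male replicates 2, 3 and 4 (limma adjusted p up to 0.144, for female replicate 2).

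The insulin-responsive carrier gene Slc2a4 had 521.2 ± 110.5 in females and 365.1 ± 56.2 in males, ranges that did not overlap, and did not pass (-0.49 ± 0.20, limma adjusted p = 0.072). It was called with quantile normalization (limma adjusted p = 0.028), with array weights, without the variance trend and when each gene entered the fit once. Slc2a12 (-0.26, 95% confidence interval -0.56 to 0.04), Slc2a13, a myo-inositol carrier (-0.17), and Slc2a10 (-0.11) did not pass. Of the 7 tested Slc2 genes, 2 were called, both lower in males (28.6%, beside 28.2% of all genes). All 7 had a difference below 0 on their brightest probe set, with a median of -0.26 beside -0.12 over all genes. How many of all genes lay below 0 was not counted. For Slc2a1 and Slc2a10 the sign of the difference turned when 1 array was left out, and for Slc2a3 with the mean of its probe sets. Slc2a2, Slc2a5, Slc2a6 and Slc2a9 had no probe set above the filter.

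In the monocarboxylate family, Slc16a4 and Slc16a9 rose in males and Slc16a13 was lower, while Slc16a1, the widely expressed lactate and pyruvate carrier, did not pass. Slc16a4, a member whose substrates are little known, read 2708, 3233, 2924 and 1921 in females and 3379, 4893, 4949 and 5016 in males. The lowest male array, replicate 1, lay just above the highest female array. Its difference was 0.76 ± 0.18 (limma adjusted p = 0.00492), and the fold was 1.70. A further Slc16a4 probe set lay below the intensity filter, was not tested and had its higher mean in females. It read 220.6 ± 56.7 in females and 165.1 ± 44.5 in males, with overlapping ranges. Slc16a9, a carnitine carrier, read 416, 394, 392 and 351 in females and 974, 728, 782 and 442 in males. Here male replicate 4 stood close to the females, and the difference was 0.83 ± 0.22 (limma adjusted p = 0.0111). A further tested Slc16a9 probe set differed by 0.23 ± 0.25 with overlapping ranges and did not pass.

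Slc16a13, another carrier of the lactate family, read 409, 507, 553 and 452 in females and 310, 262, 276 and 247 in males. All male arrays lay below the females, by -0.77 ± 0.18 (limma adjusted p = 0.00563). Slc16a1 read 6522, 6524, 7454 and 7250 in females and 6430, 7807, 7858 and 6422 in males. These ranges overlapped fully, with a difference of 0.03 and a 95% confidence interval of -0.19 to 0.26. The sign of Slc16a1 turned without male replicate 2, without male replicate 3 and with the 18S covariate. Slc16a10, a carrier of aromatic amino acids (-0.21), Slc16a7, a high-affinity pyruvate carrier (-0.13), and Slc16a11 (0.07) did not pass. Slc16a3, which exports lactate from glycolytic cells, lay below the filter with 91.0 to 148.9 in females and 130.8 to 143.7 in males.

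**Figure D2:**
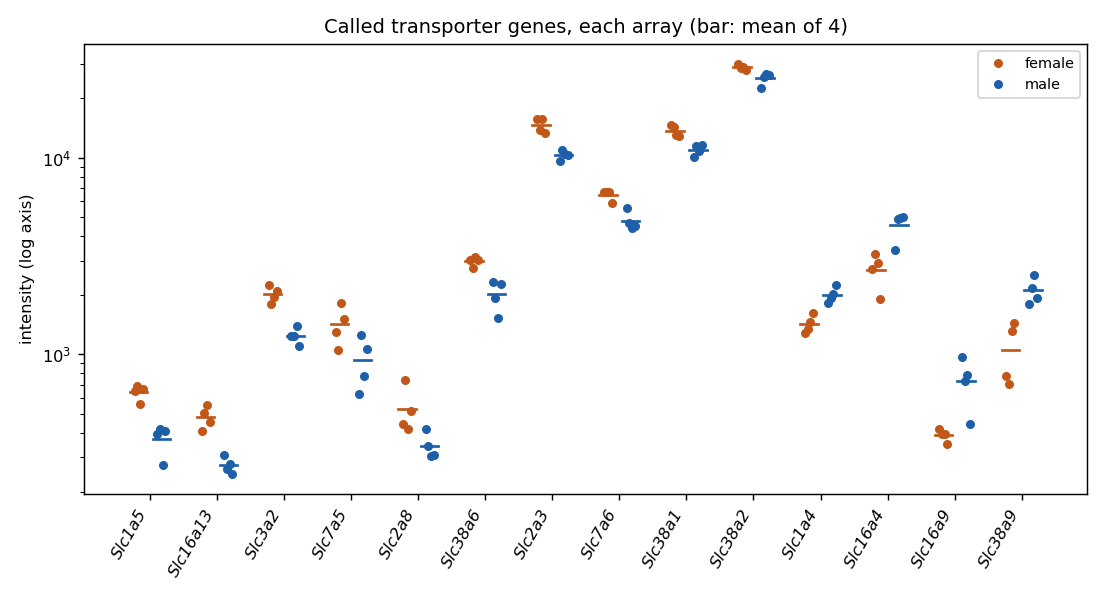
Intensity (log axis) of the 14 called transporter genes on each array, with 4 female points (orange) and 4 male points (blue) per gene and a bar at each mean, ordered by difference. The points of the sexes overlap for Slc7a5 and Slc2a8 and are apart for the other 12.

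The Slc1 family held calls in both directions among its neutral amino acid exchangers. Slc1a4, which carries alanine, serine and cysteine, read 1279, 1348, 1454 and 1625 in females and 1829, 1929, 2034 and 2250 in males. Each male array was above each female array, with a difference of 0.49 ± 0.13 (limma adjusted p = 0.0106). A dimmer Slc1a4 probe set was called too (0.75 ± 0.27, limma adjusted p = 0.0413) with overlapping ranges. Its call ended without any 1 of 5 arrays, female replicates 1, 2 and 3 and male replicates 1 and 3 (limma adjusted p up to 0.112, for male replicate 3), and the remaining tested one differed by 0.05. Slc1a5, the main plasma membrane exchanger for glutamine, went the other way and read 655, 689, 560 and 667 in females and 392, 416, 274 and 407 in males. That is a difference of -0.78 ± 0.18 (limma adjusted p = 0.0059), or 1.71-fold higher in females. The glial glutamate transporter gene Slc1a3 did not pass on any of its 3 tested probe sets (0.07, -0.03 and -0.20). The sign of the brightest of them turned without male replicate 2, without male replicate 4 and with the mean of its probe sets. Slc1a1, Slc1a2, Slc1a6 and Slc1a7, which encode other glutamate transporters, had no probe set above the filter.

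The heavy chain Slc3a2 was lower in males, and of the 4 tested genes of its light chains Slc7a5 and Slc7a6 were lower while Slc7a7 (0.23 ± 0.24) and Slc7a10 (0.52 ± 0.27) did not pass and had differences above 0. Slc3a2 read 2247, 1798, 1954 and 2098 in females and 1235, 1242, 1391 and 1101 in males. The groups were far apart for this gene, whose single probe set differed by -0.70 ± 0.13 (limma adjusted p = 0.00166), 1.62-fold higher in females. Slc7a6, a light chain that exchanges cationic for neutral amino acids, read 6704, 6706, 6677 and 5866 in females and 5526, 4660, 4382 and 4516 in males. Its difference was -0.45 ± 0.10 (limma adjusted p = 0.00489), while a further tested Slc7a6 probe set differed by -0.07 (95% confidence interval -0.28 to 0.14) and did not pass. Slc7a5, the light chain for leucine and other large neutral amino acids, read 1296, 1052, 1825 and 1519 in females and 630, 1251, 777 and 1067 in males. The ranges overlapped, and the difference of -0.62 ± 0.23 passed narrowly (limma adjusted p = 0.0456). The call of Slc7a5 ended without any 1 of 5 arrays, female replicates 1, 3 and 4 and male replicates 1 and 3 (limma adjusted p up to 0.137, for female replicate 3), and with quantile normalization (limma adjusted p = 0.0663), array weights or no variance trend.

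The Slc7 carriers that work without a heavy chain did not pass. Slc7a1, the general arginine and lysine carrier, read 9643, 11226, 13431 and 9815 in females and 9664, 14170, 12400 and 13419 in males, a difference of 0.17 with a 95% confidence interval of -0.12 to 0.46. Slc7a2, an arginine carrier, had 1713 ± 148 in females and 2248 ± 358 in males and narrowly missed the threshold (0.38 ± 0.14, limma adjusted p = 0.0505). It passed without male replicate 1 (limma adjusted p = 0.0109) and under several other settings, among them quantile normalization (0.0481) and array weights (0.00991). Slc7a3, a further cationic carrier (-0.11 ± 0.25), and Slc7a4 (-0.14 ± 0.16) did not pass. Slc7a10, Slc7a4 and Slc7a3 turned sign with the 18S covariate, and Slc7a3 also without male replicate 3.

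Slc38 was the family with the most called probe sets, 9 of 21 tested, of which 3 were higher in males and 6 in females (42.9%, beside 40.5% of all probe sets). Slc38a9, the lysosomal arginine sensor, rose in males by more than any other called transporter gene. Its brightest probe set (1436456_at) read 777, 707, 1308 and 1445 in females and 1799, 2178, 2535 and 1944 in males, higher by 1.04 ± 0.23 (limma adjusted p = 0.00357), or 2.06-fold. The female arrays fell into a lower and a higher pair, and all male arrays were above both. The probe sets 1447784_x_at (0.79 ± 0.15) and 1456338_at (0.84 ± 0.18) were called as well, each without overlap between the sexes, and the other 3 tested probe sets of the gene were dimmer and differed by 0.19 to 0.46 without passing. So all 6 tested Slc38a9 probe sets had a difference above 0, and the 3 calls held without each array in turn.

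The system A carriers Slc38a1 and Slc38a2, which import glutamine and alanine with sodium, were lower in males by small amounts. Slc38a1 read 14673, 14261, 13056 and 12918 in females and 10084, 11422, 10830 and 11630 in males. The sexes were apart, with a difference of -0.32 ± 0.08 (limma adjusted p = 0.00717), but a dimmer probe set differed by 0.43 ± 0.18 without passing, and the mean of the pair gave 0.06 with no call. The brighter probe set of Slc38a1 carries a suffix (_s) for probes that transcripts can share, and the dimmer one does not. Slc38a2 read 29780, 28528, 29022 and 27880 in females and 22663, 25738, 26478 and 26407 in males, a male minus female difference of -0.19 ± 0.06 (limma adjusted p = 0.0346). That call ended without any 1 of 5 arrays, female replicates 1, 2 and 3 and male replicates 1 and 2 (limma adjusted p up to 0.0908, for female replicate 1), without the variance trend and with the mean of its 3 probe sets (limma adjusted p = 0.258). A dimmer Slc38a2 probe set was lower in males as well (-0.59 ± 0.19, limma adjusted p = 0.023), a call that ended without female replicate 2 (0.0763), male replicate 2 (0.0514) or male replicate 4 (0.0636). The remaining tested Slc38a2 probe set went the other way, by 0.21 ± 0.25, and did not pass.

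Slc38a4, an imprinted system A carrier, read 9085, 9421, 12189 and 12377 in females and 10185, 16251, 14400 and 15838 in males. Male replicate 1 lay among the females, and the difference of 0.39 ± 0.15 did not pass (limma adjusted p = 0.0579). It passed without male replicate 1 (0.54, limma adjusted p = 0.00432) and without female replicate 4 (0.46, limma adjusted p = 0.043). With all arrays it passed under quantile normalization (limma adjusted p = 0.0474), the upper-quartile filter (0.0422), array weights (0.00981) and the replicate block (0.0233). Slc38a6, a less studied member, fell from 2974 ± 165 in females to 2028 ± 370 in males (-0.57 ± 0.14, limma adjusted p = 0.00818), with no overlap. Slc38a7, which exports glutamine from lysosomes, differed by 0.22 ± 0.17 and did not pass.

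Slc38a10, a member of less settled function, gave different results on its 6 tested probe sets. The brightest, 1456241_a_at, read 8185, 7988, 8462 and 10861 in females and 10109, 6942, 8668 and 8294 in males, and differed by -0.06 with a 95% confidence interval of -0.34 to 0.21. By contrast, 1427294_a_at read 3545, 3133, 3266 and 2102 in females and 1337, 795, 1466 and 788 in males. This was the largest difference of any tested transporter probe set (-1.47 ± 0.23, limma adjusted p = 0.00053), 2.78-fold higher in females, and 1427295_at differed by -0.95 ± 0.17 (limma adjusted p = 0.00103). Both held without each array in turn. The remaining 3 differed by 0.01 to 0.33 and did not pass.

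Across the 14 transporter genes with 2 or more tested probe sets, 9 had all differences of the same sign and 5 had both signs: Slc1a3, Slc2a3, Slc38a1, Slc38a10 and Slc38a2. No transporter gene was called in both directions. In 8 of the 14 genes at least 1 probe set was called, and in 0 of them were all called. Slc38a10 was the only transporter gene called on another probe set and not on its brightest. The same counts were not made over all genes of the array.

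**Figure D3:**
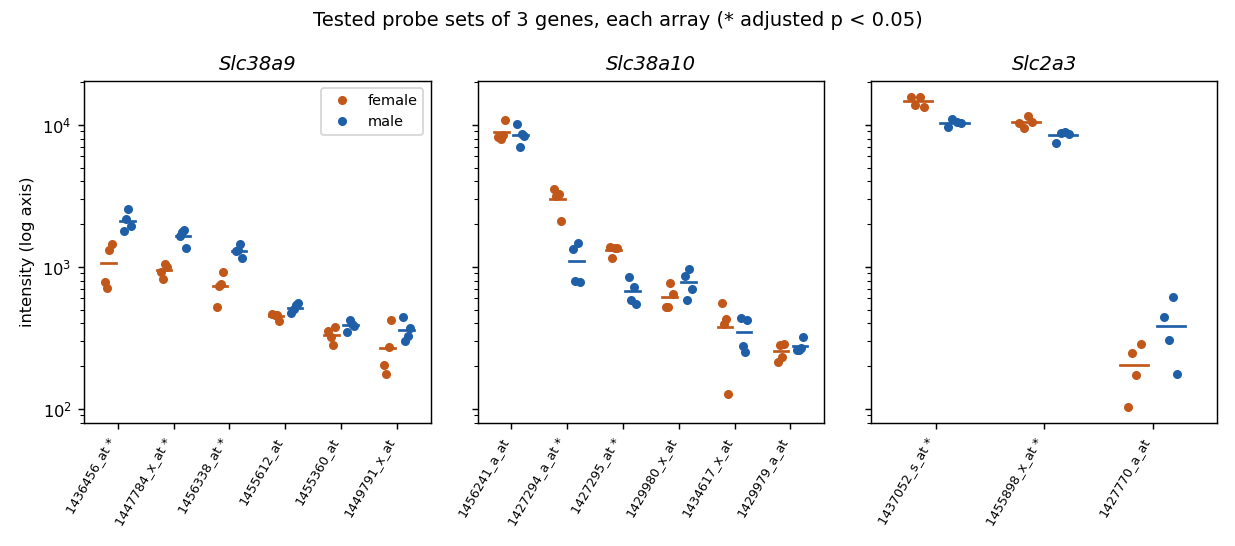
Intensity (log axis) on each array for the tested probe sets of Slc38a9, Slc38a10 and Slc2a3, 4 female points (orange) and 4 male points (blue) with a bar at each mean; a star marks an adjusted p under 0.05. The 3 starred Slc38a9 probe sets are higher in males, and the 2 starred Slc38a10 probe sets are lower in males while the brightest overlaps.

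The other 60 member probe sets, among them all of 24 genes, lay below the intensity filter, with single values from 1.53 to 411.4. These genes were 7 of the Slc7 family, 6 of Slc16, 4 each of Slc1 and Slc2, 2 of Slc38 and 1 of Slc3. Slc7a11, the cystine importer that feeds glutathione synthesis, was among them with 102.4 to 201.0 in females and 125.4 to 217.7 in males on its brighter probe set. Male and female ranges were apart for 3 of the 60, all higher in males: Slc7a8, a light chain of Slc3a2 (39.6 to 77.7 in females, 124.1 to 140.3 in males), and 1 probe set each of Slc1a1 and Slc7a1. How often ranges were apart among all probe sets below the filter was not counted. In the fit without an intensity filter the probe sets of Slc7a8 and Slc7a1 passed. That fit called 15.8% of the 120 member probe sets, beside 19.4% of all probe sets. Its median difference was 0.14 over the 120 members and 0.08 over all probe sets, against -0.01 over all probe sets above the filter.

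The promoters of 4 called amino acid carrier genes are shown because these genes were called in opposite directions: Slc3a2 and Slc38a2 were lower in males, and Slc1a4 and Slc38a9 were higher. Each sequence is the 250 bases upstream of the gene's start in RefSeq (GRCm38.p6), 5′ to 3′ on the gene's strand. Capitals mark the GC box GGGCGG on either strand, a site of Sp1 family factors.
Slc3a2 (chr19:8713898-8714147, - strand): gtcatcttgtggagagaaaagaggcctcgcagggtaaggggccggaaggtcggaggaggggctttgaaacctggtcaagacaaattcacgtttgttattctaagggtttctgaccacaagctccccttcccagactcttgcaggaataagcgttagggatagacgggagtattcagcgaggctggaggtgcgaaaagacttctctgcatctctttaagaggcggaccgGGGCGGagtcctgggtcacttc
Slc38a2 (chr15:96699729-96699978, - strand): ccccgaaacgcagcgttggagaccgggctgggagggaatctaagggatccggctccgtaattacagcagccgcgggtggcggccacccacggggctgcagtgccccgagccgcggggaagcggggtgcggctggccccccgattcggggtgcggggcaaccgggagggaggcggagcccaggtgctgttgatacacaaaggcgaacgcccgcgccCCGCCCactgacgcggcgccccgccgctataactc
Slc1a4 (chr11:20332714-20332963, - strand): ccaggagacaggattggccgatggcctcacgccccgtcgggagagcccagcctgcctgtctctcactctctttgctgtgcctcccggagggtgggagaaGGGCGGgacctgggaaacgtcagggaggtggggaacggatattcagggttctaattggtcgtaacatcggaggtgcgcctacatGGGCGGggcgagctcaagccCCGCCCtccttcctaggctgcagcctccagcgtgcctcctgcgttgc
Slc38a9 (chr13:112660516-112660765, + strand): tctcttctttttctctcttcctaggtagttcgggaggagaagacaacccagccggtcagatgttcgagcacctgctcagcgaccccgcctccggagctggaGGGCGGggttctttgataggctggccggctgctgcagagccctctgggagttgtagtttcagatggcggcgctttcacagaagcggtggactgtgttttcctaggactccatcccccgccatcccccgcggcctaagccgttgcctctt
Slc1a4 held 3 GC boxes and the others 1 each, so the motif was present in both directions. RefSeq entries were matched for 42 of the 57 genes, with 52 windows of this length. The GC box was found in 29 of the 52 (55.8%), beside 32.7% of all 32851 such windows, whose median GC content was 52.4% against 55.4% in the members. The amino acid response motif TGATGNAA, bound by Atf4 with its partners, was found on either strand in 3 windows, of Slc7a7 and Slc7a11 (5.77%, beside 3.45% of all windows). The E-box CACGTG was found in 7 (13.5%, beside 6.02% of all windows), and the cAMP response element TGACGTCA in 1, of Slc38a6 (1.92%, beside 1.55%). A match describes letters in these windows only.

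Of 10 tested partners and trafficking regulators of the transporters, 1 was higher in males (10%, beside 14% of all genes) and 2 were lower (20%, beside 28.2%). Bsg, which encodes the chaperone that brings lactate carriers to the membrane, had 508.7 ± 77.2 in females and 250.5 ± 20.7 in males (-0.97 ± 0.19, limma adjusted p = 0.0018), and Emb, the alternative chaperone, differed by -0.01 (95% confidence interval -0.30 to 0.28). Snx27, which recycles glucose carriers from endosomes, differed by -0.96 ± 0.13 on its brightest probe set, but a dimmer one was called with males higher (1.09 ± 0.31, limma adjusted p = 0.014) and their mean gave 0.06. Arrdc4, an arrestin that promotes uptake of glucose carriers into the cell, rose by 0.35 ± 0.12 (limma adjusted p = 0.0411). Its call ended without any 1 of 5 arrays (female replicates 1, 2 and 4 and male replicates 2 and 4, with limma adjusted p up to 0.114, for female replicate 1). With the 18S covariate Bsg (-1.07), the brightest Snx27 probe set (-0.81) and Arrdc4 (0.39) kept their sign and lost their calls.

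Genes of lactate and pyruvate handling and of the response to amino acid shortage were lower in males where they passed on their brightest probe set. Both lists, like the other related lists, were chosen with earlier results of these data known. Their shares therefore describe the listed genes only. In the lactate and pyruvate list 8 of 9 tested genes were lower and 0 higher in males, with a median of -0.40, beside 28.2% of all genes higher in females and a median of -0.12. They included Pkm, the last enzyme of glycolysis, with 4836 ± 290 in females and 2401 ± 335 in males (-1.01 ± 0.12, limma adjusted p = 0.00012), the mitochondrial pyruvate carrier gene Mpc1 (-0.83 ± 0.12), pyruvate carboxylase Pcx (-0.71 ± 0.18) and the kinase gene Pdk3 (-0.64 ± 0.10). In the list of the amino acid shortage response 8 of 13 were lower (61.5%, beside 28.2% of all genes), 0 were higher and 5 did not pass, with a median of -0.51. Shmt2, a mitochondrial serine enzyme, fell from 2014 ± 233 to 796.5 ± 150 (-1.33 ± 0.16), Eif2ak4, the kinase that senses uncharged tRNA, by 1.24 on the log2 scale, the serine synthesis gene Phgdh by 0.92 and the proline synthesis gene Aldh18a1 by 0.70. The last call ended without female replicate 4 (limma adjusted p = 0.0516) or without male replicate 3 (limma adjusted p = 0.0521). Of the genes named so far in this paragraph, only Eif2ak4 kept its call with the 18S covariate. The others kept their sign there, with differences from -1.07 (Shmt2) to -0.16 (Aldh18a1) and Pkm at -0.93 (limma adjusted p = 0.0551). For Atf4 itself, the transcription factor of this response, the brightest probe set gave 0.11, and another was called lower in males (-0.81 ± 0.13, limma adjusted p = 0.000779).

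In the list of amino acid sensing by mTORC1, 2 of 19 tested genes were higher in males (10.5%, beside 14% of all genes), 6 were lower (31.6%, beside 28.2%) and 11 did not pass, so calls were about as frequent as over all genes. The median was -0.20. Fnip1, a partner of folliculin at the lysosome, rose from 4703 ± 672 in females to 9483 ± 1180.1 in males (1.01 ± 0.12, limma adjusted p = 0.000137), the same direction as Slc38a9. Rptor, a core subunit of mTORC1, was lower (-0.88 ± 0.15), as were its inhibitor Tsc1 (-0.84 ± 0.14) and Wdr24 (-0.73 ± 0.15), a subunit of an upstream activating complex. Of 10 tested genes of glutamine, glutamate and glutathione metabolism, 3 were higher in males (30%, beside 14% of all genes) and 2 were lower (20%, beside 28.2%). Gsr, which regenerates glutathione, rose from 1671 ± 344 to 4508 ± 432 (1.44 ± 0.15, limma adjusted p = 5.86e-05) and Gclm, a subunit of the first enzyme of its synthesis, by 0.78 ± 0.19, while the lipid peroxide reductase gene Gpx4 (-1.15 ± 0.18) and the aspartate transaminase gene Got2 (-0.52 ± 0.08) were lower. The remaining gene called higher, Glul, which makes glutamine, gave 0.41 ± 0.11 (limma adjusted p = 0.0103) on its brightest probe set, but a dimmer one was called lower in males (-0.92 ± 0.22, limma adjusted p = 0.0056) and their mean gave -0.26 with no call. With the mean of their probe sets Gclm (0.25) and Got2 (-0.00045) were not called. Among the genes named in this paragraph, only Gsr kept its call with the 18S covariate. The others kept their sign there, among them Fnip1 (0.72), Rptor (-0.87), Gclm (1.00) and Gpx4 (-0.55).

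**Figure D4:**
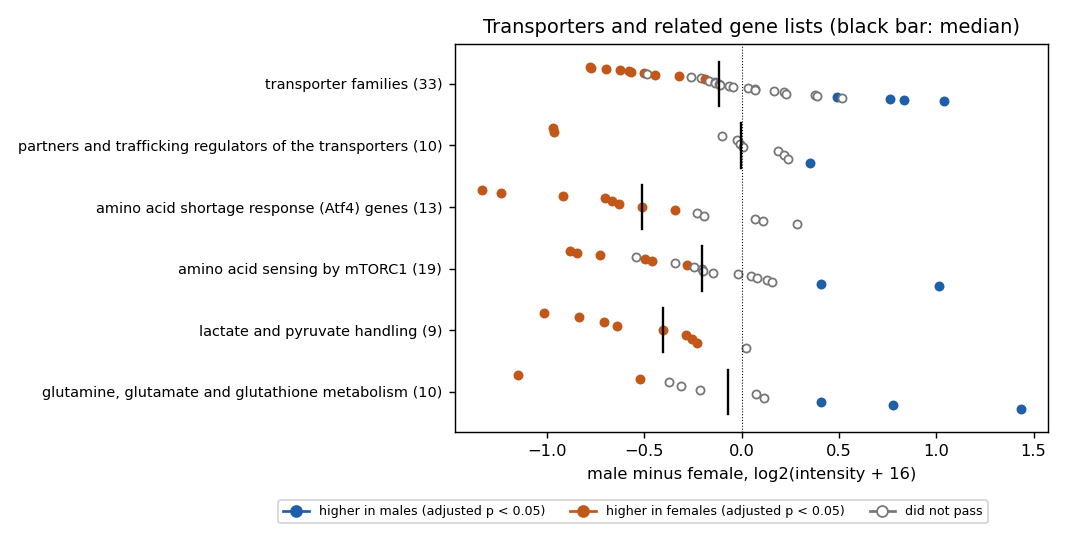
Male minus female difference on the log2(intensity + 16) scale for each tested gene (points staggered within a list, number of genes in brackets), with a black bar at the median, for the transporter families and 5 related lists. Filled points passed at an adjusted p under 0.05; the lactate and pyruvate list and the amino acid shortage list hold called genes to the left of 0 only, and the transporters hold them on both sides.

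Markers of other cell types moved with sex as well. Their counts stand beside 14% of all genes called higher in males and 28.2% called lower. The summed intensity of 9 skeletal muscle markers was 7053 to 17026 on female arrays and 19775 to 30435 on male arrays, and 7 of the 9 were called higher in males and 0 lower. Summed neuronal markers ran from 8047 to 9609 in females and from 10989 to 15238 in males, with 4 of 5 called higher and 0 lower. Endothelial and macrophage sums were also higher on every male array, where 3 of 5 endothelial markers were called higher and 1 lower (Cdh5, -0.57), and 2 of 5 macrophage markers higher and 1 lower (Cd68, -0.88). The erythroid sum was higher on every male array too, but 1 of 5 markers was called higher (Hbb-y, which makes up most of the sum and was called lower on another probe set) and 2 lower (Hba-x, -1.09, and Hbb-bh1, -1.04). By contrast, 4 of 7 tubercle markers were called lower in males and their sum was 96070 to 110049 in females and 84734 to 87139 in males. Each of these 6 sums gave p = 0.0286 (exact permutation test, two-sided; 0.0429 adjusted over 9 lists). Epithelial markers were called lower in males for 4 of 8 (Krt8, -1.15, Krt14, -0.92, Krt18, -0.90, and Krt5, -0.75) and higher for 1 (Trp63, 0.48), with a median of -0.41, although their sums overlapped between the sexes. Sums of mesenchymal and Schwann cell markers overlapped as well, and no marker in these sums was listed at 0. Of 6 mesenchymal markers, 1 was called lower and 1 higher (Col1a1, 0.47, called lower on a dimmer probe set, -1.98). Of 3 Schwann cell markers, 1 was called higher (Fabp7, 0.66) and 0 lower. The part of cell composition and of the 18S level in the transporter differences was not tested beyond the 18S covariate, and fewer cells of a type cannot be told apart from less RNA per cell in these bulk samples.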

How the data were processed

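The authors deposited a linear intensity for every probe set and array. It was produced by GCOS, Affymetrix's array software, as the submitters' processing notes state; no version, background step or detection call is given in the sources used here. The mean of each column, trimmed by 2%, was 1500.0, so no further normalization was applied. Probe sets were named from the platform annotation, which can be old, and only where it gave 1 gene; all member symbols matched the reference gene table. The 64 control probe sets were left out and the deposited intensities were transformed as log2(intensity + 16). Probe sets with a mean log2 of at least 7.773, the median probe set's, were tested with limma (version 3.58.1, R version 4.3.3; lmFit and eBayes with trend, no term other than sex, Benjamini-Hochberg adjustment, threshold 0.05). A gene is represented by its brightest tested probe set. Of the 33 representatives, 9 carry a suffix (_a, _s or _x) for probes that can match more than 1 transcript. The script was tested on simulated data. The number of arrays limits the precision.

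Values were given in full for called genes (up to 12 in each direction), the brightest member of each family, genes called in opposite directions, a preset group (Slc2a1, Slc2a3, Slc1a5, Slc3a2, Slc7a5, Slc7a11, Slc16a1, Slc16a3, Slc38a2, Slc38a9, Bsg and Emb) and up to 4 called genes of each related list; Slc38a10, Slc38a4, Arrdc4 and the probe sets below the filter were added after their values were seen. Members and lists were chosen with earlier results of these data known. The alternatives tried were pseudocounts of 1 and 64, quantile normalization, an upper-quartile filter or none, variance models without trend or robust, weighted arrays, a block for the replicate number, an 18S covariate, averaged probe sets and leaving out each array. Among the 28 array pairs, 0 held identical values.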

Additional observations from a re-analysis of the deposited data

Results flagged for a closer look

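Within the 4 arrays of a sex, 15 of 164 sets of values had 1 array far from the other 3, by Dixon's 95% limit on the gap over the range (chance gives about 1 in 20). Among called transporters, Slc16a4 read 3379 in male replicate 1, against 4893 to 5016 in the other males, Slc1a5 read 274 in male replicate 3 (others 392 to 416), and Slc7a6 read 5866 in female replicate 4 (others 6677 to 6706). Probe sets of Slc38a10 stood out on 3 arrays: 10861 in female replicate 4 (others 7988 to 8462), 1162 in female replicate 2 (others 1349 to 1377) and 322 in male replicate 4 (others 259 to 269). Female replicate 4 also read 414 on a Slc38a9 probe set that did not pass (others 461 to 462), 2182 for Gsr (others 1438 to 1554) and 7751 for Glul (others 5612 to 5860). Male replicate 1 was high for a Slc2a1 probe set (3505, others 2926 to 3000), for Slc7a4 (585, others 523 to 532) and for Mpc1 (2043, others 1810 to 1840). Female replicate 1 was low for Slc38a7 (409, others 491 to 506) and Slc7a7 (288, others 407 to 425), and male replicate 2 was high for an Slc1a3 probe set (489, others 197 to 233).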

How the results depend on the processing

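Counts of called transporter probe sets (21) and genes (14) stayed within 1.5 times under every alternative run except the 18S covariate, which gave 0 and 0 (0 in either direction, 0 of the 14 genes kept, and 414 probe sets on the whole array), while all 14 kept their sign, 6 with differences within 0.8 to 1.2 times the original, 2 with larger and 6 with smaller ones, and standard errors grew 1.64 to 1.90 times. The upper-quartile filter, which tests fewer members, gave 8 probe sets and 6 genes higher in females, kept 9 of the 14 calls and called 5890 probe sets of the whole array. Without each array in turn, 18 to 22 probe sets and 12 to 14 genes were called, 11 to 13 of the 14 calls were kept, and 7358 to 9468 probe sets of the whole array were called. The numbers do not pair the samples: deviations of same-numbered arrays correlated at -0.13 to 0.04, and the best match was the same number for only 1 of 4. With the replicate block 19 transporter probe sets and 13 genes were called, and 8460 probe sets in all, against 9128. Signs turned in 29 of the single-gene values, none of them called after the turn. With the mean of probe sets these were Slc2a3 (0.0062), Slc38a1 (0.057), Snx27 (0.064), Slc1a3 (-0.053), Glul (-0.26) and Emb (0.094). With the 18S covariate they were Slc16a1 (-0.021), Slc7a10 (-0.34), Slc7a3 (0.26), Slc7a4 (0.016) and the dimmer called Slc1a4 probe set (-0.028), and with quantile normalization Slc16a11 (-0.10) and Emb (0.029). Leaving out 1 array at a time, differences on both sides of 0 ran from -0.014 to 0.083 for Slc16a1, -0.094 to 0.30 for Slc16a11, -0.32 to 0.083 for Slc16a7, -0.050 to 0.24 for Slc1a3, -0.14 to 0.12 for Slc2a1, -0.21 to 0.017 for Slc2a10, -0.15 to 0.038 for Slc38a10, -0.29 to 0.14 for Slc7a3 and -0.11 to 0.093 for Emb. The cause was not tested.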
